A study of Mus musculus with 11 samples.

Results

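The genes described here are the E2F transcription factor family, E2f1 to E2f8, together with Foxm1 and Mybl2, the gene of B-Myb. They were chosen by name. All 10 were found by symbol among 24064 genes of the gated libraries, with 1 transcript taken per gene (that of the highest mean in the 7 gated libraries), and all 10 were among the 10619 genes tested. The series measured RNA of haematopoietic stem cells (HSCs), the cells that give rise to every blood lineage, from livers of wild-type C57BL/6 mice on postnatal day 0. Cells without lineage markers and CD48 that carried Sca1, cKit and CD150 were sorted, 100 to 200 per library, and amplified by Smart-seq2, a full-length cDNA method for small inputs. The 11 libraries comprised 4 of HSCs gated as FSC-A High, 3 of HSCs gated as FSC-A Low and 4 of HSCs with no scatter gate in their labels (unfractionated). FSC-A stands for forward scatter area, a flow cytometry reading often taken as a measure of cell size. All groups share strain, genotype, age and tissue. Whether libraries stem from different animals is not in the labels, and p-values therefore measure only the spread among these libraries, which could be technical.

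E2F proteins bind promoters of genes for DNA replication and cell division. E2f1, E2f2 and E2f3 are the classical activators, held inactive by the retinoblastoma protein until cyclin-dependent kinases phosphorylate it. E2f4 and E2f5 act mainly as repressors with the other pocket proteins, E2f6 represses without a pocket protein and works with Polycomb proteins, and E2f7 and E2f8 are atypical members that bind DNA without a DP partner and dampen E2F targets late in the cycle. B-Myb joins the MuvB core and recruits FoxM1, and both switch on genes of G2 and mitosis. HSCs are largely quiescent in the adult and cycle far more around birth.

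The gated values were taken to be RPKM, read counts scaled to transcript length and library depth, for libraries of about 66.0 M to 97.5 M reads. The 4 unfractionated libraries held 21.3 M to 30.9 M reads and are given in another unit, so they were not compared with the gated ones. Of 12 HSC markers all were detected, with summed levels of 343 to 431 RPKM in FSC-A High and 542 to 693 RPKM in FSC-A Low, and 5 of them passed as lower in FSC-A High. Of 10 genes measured in the CD48 and lineage list, 8 stayed below 1 RPKM in every gated library. The exceptions were Ptprc, with the highest mean, and next Cd48, the gene of the marker sorted against. The defining lineage genes Cd3e, Cd8a and Ms4a1 were listed at 0 in the 7 gated libraries, and Cd79a and Itgam stayed below 1 RPKM. The summed CD48 and lineage list, led by Ptprc, ran from 4.48 to 7.19 RPKM in FSC-A High and 12.7 to 24.2 RPKM in FSC-A Low. Summed endothelial markers ran from 3.12 to 7.93 and from 9.72 to 16.7 RPKM in the same order, most of it from Pecam1. Summed erythroid markers ran from 110 to 237 RPKM in FSC-A High and 69.0 to 102 RPKM in FSC-A Low, most of it from Hbb-bt, with 8 of 11 markers below 1 RPKM in every library. Summed myeloid markers ran from 279 to 406 and from 262 to 264 RPKM. Summed lymphoid markers ran from 20.0 to 59.6 RPKM in FSC-A High and from 19.1 to 32.4 RPKM in FSC-A Low, with 1 of 9 genes, Nkg7, higher in FSC-A High and 5 listed at 0. Most of that sum was Cd79b, at 17.8 to 56.1 and 18.6 to 31.7 RPKM (limma adjusted p = 0.421). Summed megakaryocyte markers ran from 77.8 to 112 and from 90.6 to 125 RPKM. Summed hepatocyte markers ran from 14.6 to 28.5 and from 11.2 to 19.7 RPKM, and macrophage markers from 14.3 to 32.9 and from 10.2 to 19.4 RPKM. In FSC-A High, 1 erythroid and 1 myeloid marker passed as higher. Those passing as lower included 2 megakaryocyte markers, 1 endothelial marker and 1 gene of the CD48 and lineage list. Over all genes tested, 15.6% were higher and 11.7% were lower. The part of these cell types in the results below was not tested. In these bulk libraries, fewer cells that use a gene and less of its RNA per cell cannot be told apart.

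The promoter windows of the 3 members on which the family's result turns, or that belong with it, are shown first: E2f8, its close relative E2f7, and E2f6. They run from 250 bases before to 50 bases after an annotated start and come from RefSeq on GRCm38.p6, the assembly that mm10 denotes. Windows were found for 7 of the 10 members, with none for E2f4, E2f5 and Foxm1. Capitals mark matches, on either strand, to an E2F site (TTTCCCGC, TTTCGCGC, TTTGCCGC or TTTGGCGC), to the cell cycle homology region that the MuvB complex reads (TTTGAA or TTCGAA), to the CCAAT box (CCAAT) or to a forkhead site (GTAAACA).
E2f8, chr7:48881547-48881846, minus strand: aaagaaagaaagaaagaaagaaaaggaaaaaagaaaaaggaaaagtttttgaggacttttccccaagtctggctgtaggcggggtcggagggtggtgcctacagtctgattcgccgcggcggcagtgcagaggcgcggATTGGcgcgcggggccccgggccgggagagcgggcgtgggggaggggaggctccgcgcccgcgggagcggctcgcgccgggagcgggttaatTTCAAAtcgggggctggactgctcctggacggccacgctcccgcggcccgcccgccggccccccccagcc
E2f7, chr10:110745189-110745488, plus strand: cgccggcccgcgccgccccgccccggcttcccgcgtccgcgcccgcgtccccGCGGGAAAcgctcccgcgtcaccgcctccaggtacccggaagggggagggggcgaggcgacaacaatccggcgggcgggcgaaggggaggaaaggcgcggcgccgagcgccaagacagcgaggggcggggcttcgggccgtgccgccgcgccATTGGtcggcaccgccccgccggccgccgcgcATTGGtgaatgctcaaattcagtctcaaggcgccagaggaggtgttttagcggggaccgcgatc
E2f6, chr12:16810715-16811014, plus strand: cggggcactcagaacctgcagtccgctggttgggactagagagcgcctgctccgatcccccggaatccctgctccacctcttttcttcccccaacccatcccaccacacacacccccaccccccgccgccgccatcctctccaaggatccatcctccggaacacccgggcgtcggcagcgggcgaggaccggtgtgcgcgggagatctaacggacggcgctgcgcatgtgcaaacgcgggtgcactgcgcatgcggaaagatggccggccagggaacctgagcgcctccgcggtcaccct
The E2f8 window held a CCAAT box, read on the opposite strand, whose match began 112 bases before the start, and the letters of the cell cycle homology region, also on the opposite strand, 20 bases before it. This window lies wholly inside the E2f8 span, which reaches 48882073, so the start used is not the outermost one. The E2f7 window held an E2F site 198 bases before the start and CCAAT boxes 46 and 14 bases before it, all on the opposite strand. The E2f6 window held none of these letters. None of the other genes with windows passed the test described below. Among them, the windows of E2f2 held 2 and 4 matches, those of E2f3 held 5 and 0, and those of E2f1 and Mybl2 none. The E2f3 matches included an E2F site 11 bases and the homology region 23 bases before the start. Whether matches go with the direction of a difference was not tested. No matches overlapped within these windows. Among all 32851 windows of this length, 2.26% held an E2F site, 19.2% the homology region, 37.4% a CCAAT box and 3.65% a forkhead site. A match of letters is a description and not a shown binding site.

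In FSC-A High HSCs, E2f8 and Foxm1 were higher than in FSC-A Low HSCs, E2f6 was lower, and none of the activator E2Fs passed the test. E2f8 was at 5.67 ± 0.183 RPKM (SD, n = 4) against 1.02 ± 0.675 RPKM (SD, n = 3), Foxm1 at 6.26 ± 2.29 against 1.86 ± 2.18 RPKM, and E2f6 at 16.3 ± 3.92 against 30.5 ± 4.72 RPKM. By limma on log2(RPKM + 1), with Benjamini-Hochberg adjustment over all genes tested, 2 of the 10 members were higher at an adjusted p below 0.05, 1 was lower and 7 did not pass. Over all genes tested, 15.6% were higher, 11.7% were lower and 27.3% were called in all, so the 30.0% of members called lay near that share. Libraries of the gates did not overlap for 2 members, E2f8 and E2f6, against 34.9% of all genes (18.9% higher and 16% lower in FSC-A High). Differences are on the log2(RPKM + 1) scale, which makes those of low genes smaller. The median log2 difference was -0.15 over the 3 activators, -0.25 over the 5 repressors and 1.31 over Foxm1 and Mybl2, beside -0.04 over all genes tested.

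**Figure D1:**
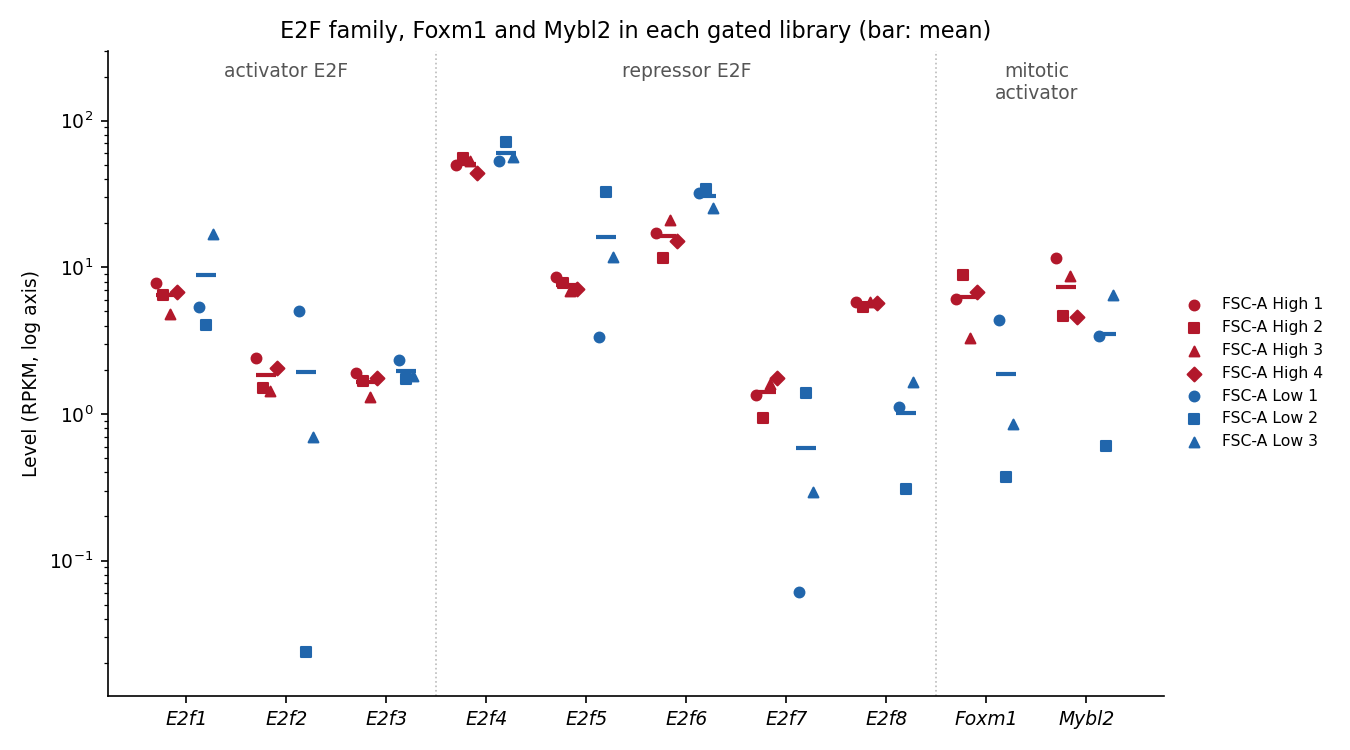
Level of each gene in RPKM (log axis) in the 4 FSC-A High and 3 FSC-A Low libraries; each marker shape is a replicate number, which does not pair the groups, and bars are group means. E2f8 lay between 5.40 and 5.79 RPKM in FSC-A High and between 0.306 and 1.65 RPKM in FSC-A Low, while the libraries of the activators overlapped.

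The activators E2f1, E2f2 and E2f3 showed no difference that passed the test. E2f1 (chromosome 2, 154559400 to 154569892 on mm10) stood at 7.81, 6.45, 4.81 and 6.78 RPKM in FSC-A High and at 5.40, 4.05 and 17.0 RPKM in FSC-A Low. FSC-A Low library 3 was above every other and the remaining ones overlapped. The log2 difference was -0.18 (95% interval -1.05 to 0.69, limma adjusted p = 0.781), and it was 0.38 (adjusted p = 0.449) without FSC-A Low library 3 and 0.14 after correction for transcript length and GC content. E2f2 (chromosome 4, 136172274 to 136196057) stood at 2.39, 1.52, 1.44 and 2.06 RPKM in FSC-A High and at 5.05, 0.0236 and 0.693 RPKM in FSC-A Low. Its FSC-A Low libraries thus lay on both sides of all FSC-A High ones, with about 11 reads behind the lowest value. The log2 difference was 0.37 (95% interval -0.72 to 1.46, adjusted p = 0.631), or -0.18 without FSC-A Low library 2. E2f3 (chromosome 13, 29906575 to 29986064) was the most even activator, at 1.90, 1.68, 1.31 and 1.77 RPKM against 2.33, 1.74 and 1.80 RPKM. Its groups overlapped, and its log2 difference was -0.15 (95% interval -0.81 to 0.50, adjusted p = 0.753), or 0.22 after the length and GC correction. By limma, 0 of these 3 genes had an unadjusted p below 0.05. The intervals allow differences of about 1 log2 unit for E2f1 and E2f2, so the data do not show equal levels.

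Both listed transcripts of E2f1 and of E2f3 gave the same picture. The second E2f1 transcript stood at 6.19 against 7.93 RPKM, a log2 difference of -0.09 (limma adjusted p = 0.895 in the table of all transcripts). The shorter E2f3 transcript stood at 1.49 against 2.03 RPKM, a log2 difference of -0.27 (adjusted p = 0.547). Reads of exons that transcripts share cannot be assigned to one of them.

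Among the pocket protein partners that repress, E2f4 was the most abundant member in every gated library. E2f4 (chromosome 8, 105297663 to 105305370) stood at 49.7, 55.5, 53.0 and 44.3 RPKM in FSC-A High and at 53.0, 71.9 and 57.0 RPKM in FSC-A Low. The groups overlapped slightly, and the log2 difference was -0.25 (95% interval -0.62 to 0.12, limma adjusted p = 0.313). Scaling each library to its total of gene values, which moves the median of all genes from -0.04 to -0.30, gave -0.56 (adjusted p = 0.0228). E2f4 made up 59.8% to 68.2% of the summed RPKM of the 5 repressors in FSC-A High and 51.1% to 59.4% in FSC-A Low.

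E2f5, the closest relative of E2f4, varied widely in FSC-A Low. E2f5 (chromosome 3, 14578602 to 14606309) stood at 8.60, 7.88, 6.91 and 7.10 RPKM in FSC-A High and at 3.33, 32.8 and 11.8 RPKM in FSC-A Low. FSC-A Low library 1 was below all FSC-A High ones and the remaining 2 were above them. Its log2 difference was -0.52 (95% interval -1.62 to 0.59, limma adjusted p = 0.489). That value was -1.27 (adjusted p = 0.0289) without FSC-A Low library 1 and 0.21 (adjusted p = 0.747) without FSC-A Low library 2.

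E2f6, the Polycomb-associated repressor, was lower in FSC-A High. It stood at 17.2, 11.6, 21.0 and 15.1 RPKM in FSC-A High and at 32.2, 34.2 and 25.2 RPKM in FSC-A Low. Every FSC-A Low library was above every FSC-A High one. The log2 difference was -0.89 (SE 0.24, 95% interval -1.40 to -0.37, limma adjusted p = 0.0145), and the mean in FSC-A Low was 1.88 times that in FSC-A High. Its second listed transcript, a non-coding one, stood at 15.9 against 29.8 RPKM, with a log2 difference of -0.88 (adjusted p = 0.0149 in the table of all transcripts). Without FSC-A Low library 2 the difference was -0.80 and no longer passed (adjusted p = 0.0537). E2f6 (its gene spans 16810909 to 16826752 on chromosome 12, mm10) overlapped no other annotated gene.

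Of the atypical repressors E2f7 and E2f8, E2f8 was higher in FSC-A High and E2f7 did not pass. E2f8 stood at 5.79, 5.40, 5.76 and 5.73 RPKM in FSC-A High and at 1.11, 0.306 and 1.65 RPKM in FSC-A Low. The FSC-A High libraries were tight, with a coefficient of variation of 3.22%, and lay above all FSC-A Low ones. The log2 difference was 1.78 (SE 0.33, 95% interval 1.07 to 2.49, limma adjusted p = 0.00172), and the mean in FSC-A High was 5.54 times that in FSC-A Low. The values rest on approximately 1410 to 1803 reads in FSC-A High and 110 to 424 in FSC-A Low. E2f8 passed in all 17 alternatives run, with log2 differences from 0.83 to 2.13 and adjusted p from 8.02e-04 to 0.0123. Its span (chromosome 7, 48866429 to 48882073) overlaps by 3639 bases that of Gm2788 on the opposite strand, and reads of both cannot be told apart if strand was not used in counting.

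E2f7 (chromosome 10, 110745439 to 110787384) stood at 1.35, 0.943, 1.59 and 1.77 RPKM in FSC-A High and at 0.0609, 1.39 and 0.295 RPKM in FSC-A Low. FSC-A Low library 2 lay within the FSC-A High range and the remaining 2 below it. Its log2 difference of 0.69 (95% interval -0.09 to 1.46, limma adjusted p = 0.176) did not pass. Whether E2f7 and E2f8 differed in their response was not tested. The antisense gene 1700020G17Rik, which shares 2800 bases of the E2f7 span, was listed at 0, and the antisense gene Gm11365 shares 1979 bases of the E2f3 span.

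**Figure D2:**
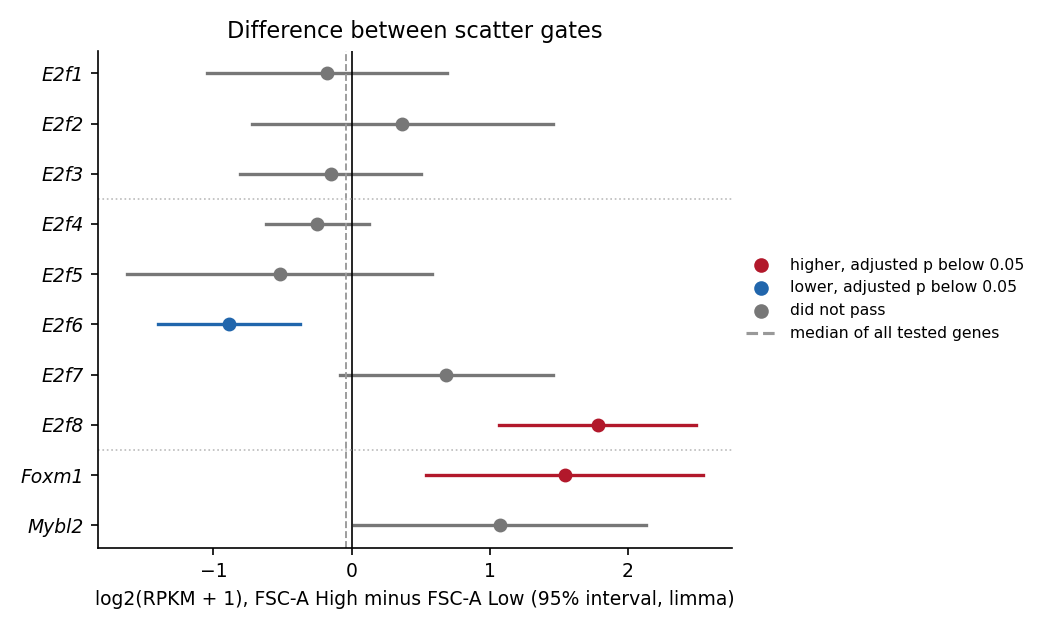
Difference of log2(RPKM + 1) between FSC-A High and FSC-A Low for each gene, with the 95% interval of limma; the dashed line is the median of all genes tested, -0.04. E2f8 at 1.78 and Foxm1 at 1.54 passed as higher and E2f6 at -0.89 as lower.

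E2f6 and E2f8 were also set together in each library, a pairing chosen after their values were seen. Each gene alone already separated the gates, in opposite directions, so their ratio had to separate them and is no further support. Over all genes tested, libraries of the gates did not overlap for 34.9%. The ratio of E2f8 to E2f6 RPKM was 0.336, 0.463, 0.274 and 0.378 in FSC-A High and 0.0347, 0.00895 and 0.0653 in FSC-A Low. E2f6 was the more abundant transcript in all 7 libraries. The summed RPKM of the 5 repressors was 74.0 to 88.3 in FSC-A High and 89.6 to 141 in FSC-A Low, and that of the 3 activators was 7.56 to 12.1 and 5.82 to 19.5.

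**Figure D3:**
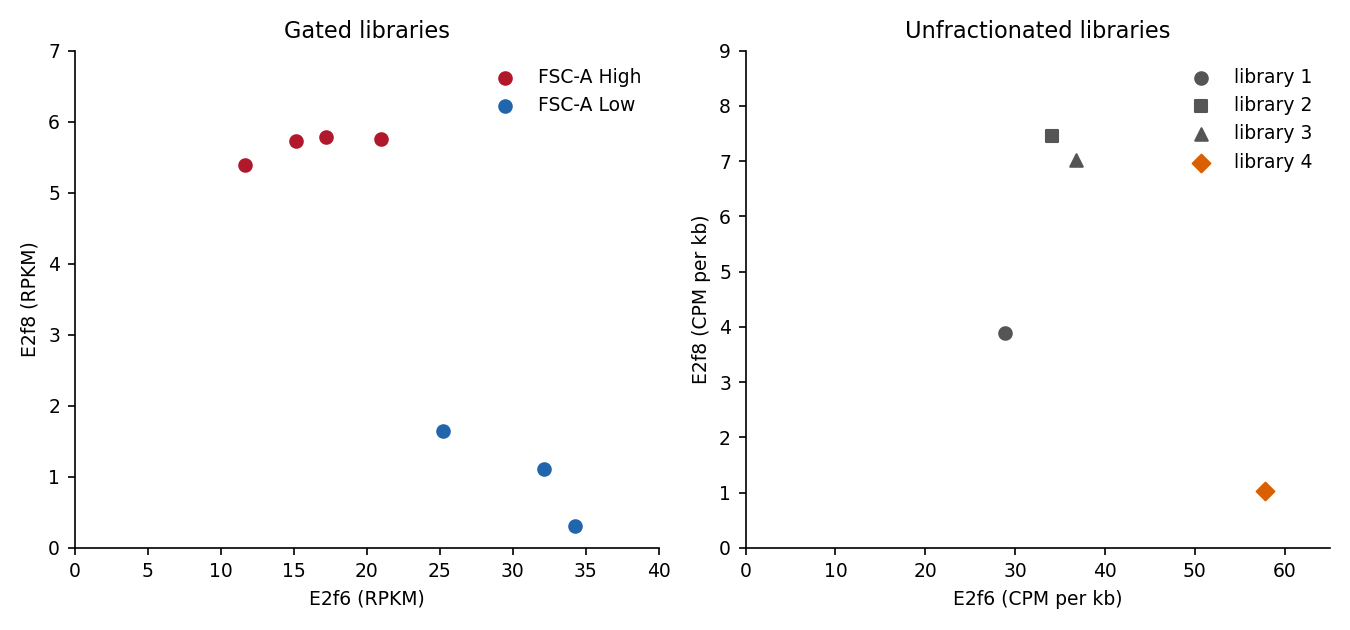
E2f6 (horizontal axis) against E2f8 (vertical axis), 1 point per library, in RPKM for gated libraries on the left and in CPM (counts scaled to library depth) per kb for unfractionated libraries on the right. The FSC-A High libraries lie at 5.40 to 5.79 RPKM of E2f8 and the FSC-A Low ones at 0.306 to 1.65 RPKM; unfractionated library 4 has the highest E2f6, 57.7, and the lowest E2f8, 1.02.

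Of the mitotic activators, Foxm1 was higher in FSC-A High on average and Mybl2 did not pass. Foxm1 stood at 6.08, 8.84, 3.29 and 6.83 RPKM in FSC-A High and at 4.36, 0.371 and 0.855 RPKM in FSC-A Low. FSC-A Low library 1 exceeded FSC-A High library 3, so the groups overlapped. The log2 difference was 1.54 (SE 0.46, 95% interval 0.54 to 2.54, limma adjusted p = 0.0256), and the ratio of the means was 3.36. The call was lost when low genes were kept (adjusted p = 0.120), with library totals as the scale (0.0518) and on leaving out FSC-A High library 2 (0.0737) or 4 (0.0612) or FSC-A Low library 2 (0.101) or 3 (0.0843). Foxm1 (chromosome 6, 128362994 to 128375886) shares 691 bases of its span with Tex52 on the same strand, which averaged 0.570 RPKM, and 644 bases with Gm44596.

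Mybl2 (chromosome 2, 163054327 to 163084688) stood at 11.6, 4.68, 8.72 and 4.60 RPKM in FSC-A High and at 3.42, 0.603 and 6.50 RPKM in FSC-A Low. Only FSC-A Low library 3 reached into the FSC-A High range. The log2 difference was 1.07 (95% interval 0.01 to 2.13, limma adjusted p = 0.124). It was 1.57 (adjusted p = 0.0360) without FSC-A Low library 3 and 1.48 (adjusted p = 0.0410) after the length and GC correction. Summed over both genes, the level was 11.4 to 17.7 RPKM in FSC-A High and 0.974 to 7.78 RPKM in FSC-A Low, which do not overlap. Each gene alone overlapped between the gates, and the sum was not tested. Over all genes tested, 34.9% did not overlap.

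Per length, the order of levels in FSC-A High began with E2f4 and E2f6, each apart from the next gene in every library. E2f5, Mybl2, E2f1, Foxm1 and E2f8 followed with means of 7.62, 7.40, 6.46, 6.26 and 5.67 RPKM, and neighbours in this order overlapped. E2f2, E2f3 and E2f7 came last at 1.85, 1.66 and 1.41 RPKM, apart from E2f8 and overlapping among themselves. In FSC-A Low, E2f4 was again apart at the top, at 60.6 RPKM, and every later neighbour overlapped. Foxm1, E2f8 and E2f7 filled the last 3 places there, with means of 1.86, 1.02 and 0.582 RPKM.

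By the root mean square difference of centred log2 values over the 7 gated libraries, the genes most like E2f8 were Rrm2 (0.149), Tctex1d2 (0.190) and Psmc3ip (0.209). Rrm2 encodes the small subunit of ribonucleotide reductase. The genes most like E2f6 were Eif4b (0.081), Cand1 (0.104) and Pygb (0.133), and those most like Foxm1 were Hirip3 (0.287), Pex11g (0.289) and Ropn1l (0.320). This measure, on the log2 scale, describes these libraries and carries no test.

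The partners of the E2Fs and the pocket proteins moved in both directions. Of 5 genes, 1 was higher in FSC-A High, 2 were lower and 2 did not pass, with a median log2 difference of -0.72. Over all genes tested, 15.6% were higher and 11.7% were lower, and the counts of this and the following lists are to be read beside these shares. Rbl1, which encodes the pocket protein p107, stood at 13.8 ± 4.30 (SD, n = 4) against 5.78 ± 1.04 RPKM (SD, n = 3), with limma adjusted p = 0.0163 (0.0524 without FSC-A Low library 2, and 0.0633 with library totals as the scale). Rbl1 had no transcript length here, so the length and GC correction could not be applied to it. Rbl2, which encodes p130, the pocket protein of resting cells, stood at 4.49 ± 0.784 against 12.8 ± 1.30 RPKM, with adjusted p = 0.00298. Rb1 stood at 0.390 ± 0.216 against 2.08 ± 0.489 RPKM (adjusted p = 0.0162, or 0.0510 after the length and GC correction and 0.0509 without FSC-A Low library 1). It was below 1 RPKM in every FSC-A High library and met the filter only through the FSC-A Low libraries, where it was high. Its call among the lower genes is therefore weak support. The DP partner genes Tfdp1 and Tfdp2 had log2 differences of -0.31 and -0.72 and did not pass.

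In the MuvB and Myb list, 2 of 6 tested genes were higher, 1 was lower and 3 did not pass, with a median of 0.24. The MuvB subunit gene Lin37 stood at 104 ± 9.58 against 53.9 ± 9.85 RPKM (log2 difference 0.95, limma adjusted p = 0.00118; 0.49 and adjusted p = 0.0662 after the length and GC correction). Rbbp4, a histone-binding subunit, had a log2 difference of 0.53 (limma adjusted p = 0.0324). The Rbbp4 call was lost without FSC-A High library 1, 2 or 3 or FSC-A Low library 1 or 3 (adjusted p from 0.0617 to 0.0950), and the difference was 0.23 with library totals as the scale. Lin9 (0.72) and Lin52 (-0.55) did not pass. Myb, the relative of B-Myb that is central to blood progenitors, was lower, at 33.7, 30.8, 33.3 and 42.3 RPKM against 79.6, 67.2 and 92.8 RPKM. Its groups did not overlap, and its log2 difference was -1.16 (adjusted p = 5.71e-04). The other relative, Mybl1, was below the filter.

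Of 8 G1 cyclin and kinase genes, 2 were higher, none was lower and 6 did not pass, with a median of 0.24. The share called lay near the 27.3% called over all genes tested. Cdk4, the kinase that starts pocket protein phosphorylation, stood at 662 ± 54.5 against 357 ± 44.0 RPKM (limma adjusted p = 2.48e-04). Ccne2, a cyclin E gene and itself an E2F target, had a log2 difference of 0.96 (adjusted p = 0.0342). The Ccne2 call was lost on leaving out any library other than FSC-A Low library 3 (adjusted p from 0.0513 to 0.115). The D cyclin genes Ccnd1, Ccnd2 and Ccnd3 had log2 differences of -0.21, 0.29 and -0.27 and did not pass. Ccnd2 was called at 0.66 (adjusted p = 0.00345) after the length and GC correction, but stood at -0.020 with library totals as the scale. With those totals Ccnd3 was called at -0.58 (adjusted p = 0.00825).

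Of 11 tested genes for partners of E2F6 in its Polycomb complex, 1 was higher, 3 were lower and 7 did not pass, with a median of -0.43. The subunit genes Yaf2 and L3mbtl2 had log2 differences of -0.77 (limma adjusted p = 0.0119, or 0.0522 without FSC-A Low library 1) and -1.02 (adjusted p = 0.0390). The histone deacetylase genes split, with Hdac1 at 0.57 and Hdac2 at -0.64. The L3mbtl2 call was lost without FSC-A High library 1 or 3 or any FSC-A Low library (adjusted p from 0.0600 to 0.103). The Hdac1 call was lost without FSC-A High library 2 or 3 or FSC-A Low library 1 or 2 (0.0728 to 0.0886), and its difference was 0.26 with library totals as the scale. The Hdac2 call was lost without FSC-A High library 2 or FSC-A Low library 1 or 3 (0.0548 to 0.0761).

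Genes whose products limit E2F activity or mark E2Fs for destruction were mostly higher. Of 4 genes, 3 were higher and 1 did not pass, with a median of 1.82. Ccna2, cyclin A, stood at 96.2 ± 4.40 against 16.8 ± 12.2 RPKM, and Ccnf, cyclin F, at 43.4 ± 2.94 against 6.56 ± 4.69 RPKM (limma adjusted p = 4.11e-04 and 7.81e-05). Fzr1, an activator of the anaphase-promoting complex, had a log2 difference of 0.91, and Skp2 one of 0.69 that did not pass. After the length and GC correction Skp2 was called at 0.83 (adjusted p = 0.0457).

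Of 7 genes known to act on FoxM1, 5 were higher, 1 was lower and 1 did not pass, with a median of 2.53. Melk, a kinase, stood at 11.6 ± 4.32 against 1.81 ± 2.73 RPKM (limma adjusted p = 0.00296) and Cdc25b, a phosphatase that activates cyclin-dependent kinases, at 14.1 ± 2.24 against 2.95 ± 0.803 RPKM. Cdk1, Plk1 and Ccnb1 were higher by 3.76, 3.79 and 4.26 on the log2 scale. Foxo1, a forkhead factor that opposes FoxM1, was at 1.93 ± 1.15 against 6.36 ± 3.71 RPKM (log2 difference -1.28, adjusted p = 0.0384), and its groups overlapped. The Foxo1 call was lost without FSC-A High library 1, 2 or 3 or FSC-A Low library 1 or 2 (adjusted p from 0.0705 to 0.160).

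The target lists differed in how many genes were higher. Of 30 G1/S targets of E2F, 13 were higher in FSC-A High, 1 was lower and 16 did not pass, with a median of 0.70. Of 30 G2/M targets of B-Myb and FoxM1, all 30 passed as higher, with a median of 2.96 and log2 differences from 1.79 for Mki67 to 5.43 for Ube2c, named here as the ends of the range. Cenpf, below 1 RPKM in every FSC-A Low library, met the filter only through the FSC-A High libraries. These lists were drawn up with earlier results of these data known and their counts are no independent support. Ccna2, Ccnb1, Cdk1, Plk1, Cdc25b, Ccne1 and Ccne2 stand in more than 1 list. Tk1, Rfc4 and Pcna were among the G1/S genes with the smallest p, with log2 differences of 3.04, 1.97 and 1.82. Cdc25a, a phosphatase that promotes entry into S phase, was at 3.23 ± 0.587 against 8.13 ± 3.45 RPKM (limma adjusted p = 0.0293), and its call was lost without FSC-A High library 1, 2 or 4 or FSC-A Low library 1 (0.0524 to 0.132). The G2/M genes with the smallest p were Birc5, Cdc20, Nusap1 and Cenpa, with log2 differences of 4.88, 3.36, 4.04 and 2.82.

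**Figure D4:**
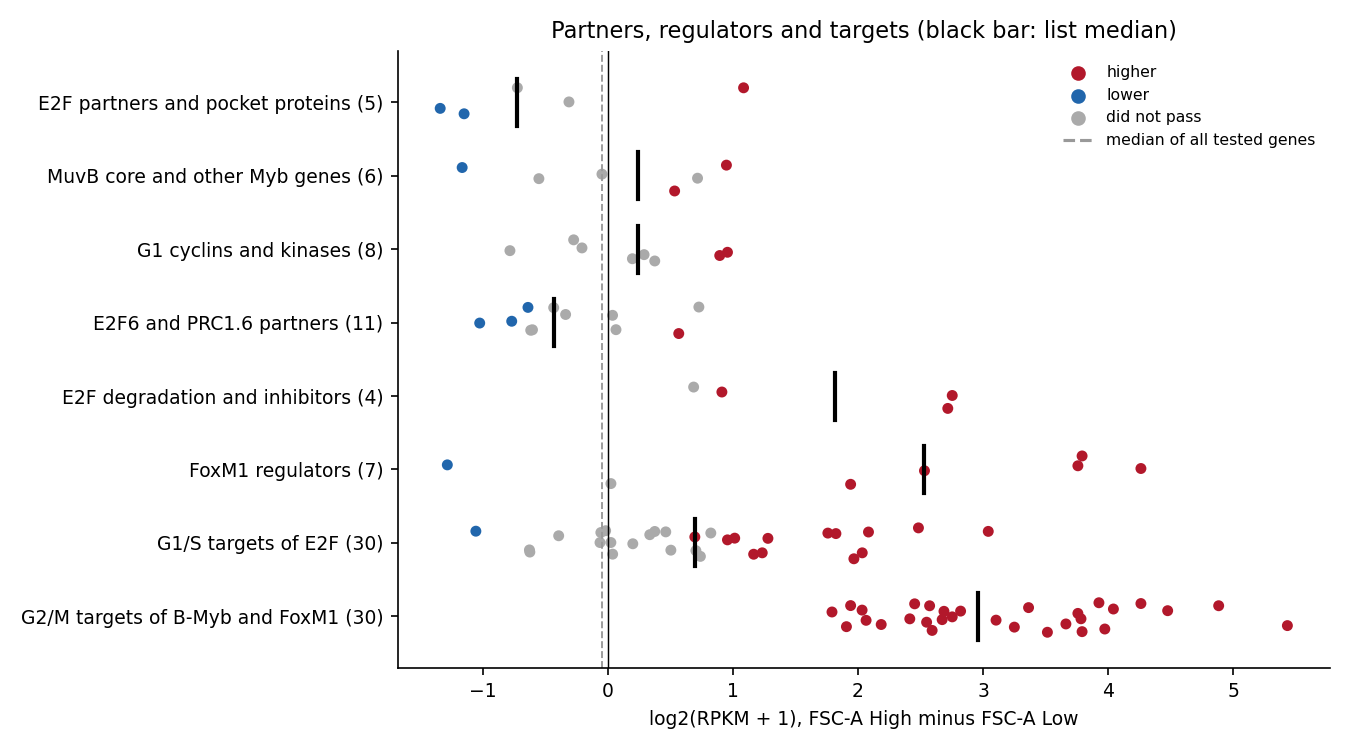
Difference of log2(RPKM + 1) between FSC-A High and FSC-A Low, 1 point per tested gene, for the lists of partners, regulators and targets, with the number of genes tested in brackets; red and blue points passed as higher and lower, and black bars are list medians. The median was 2.96 for G2/M targets, 0.70 for G1/S targets and -0.72 for E2F partners and pocket proteins.

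For E2f1, Foxm1 and Mybl2, picked after their values were seen, the libraries stood in a different order than for the targets. Both target medians, E2f8 and the sum of Foxm1 and Mybl2 placed every FSC-A High library above every FSC-A Low one. Whether levels of the factors and of the targets go together was not tested. The median RPKM of the G1/S targets was 30.2, 30.9, 34.1 and 27.6 in FSC-A High and 25.3, 16.3 and 23.4 in FSC-A Low. That of the G2/M targets was 58.0, 44.7, 54.3 and 68.1 against 5.33, 3.35 and 2.58. FSC-A Low library 3, with the highest E2f1 of all 7 (17.0 RPKM), had a G1/S median of 23.4 RPKM. That was below every FSC-A High library and above FSC-A Low library 2, at 16.3 RPKM. The same library 3, with Mybl2 at 6.50 RPKM, had the lowest G2/M median. FSC-A Low library 1, with Foxm1 at 4.36 RPKM, had a G2/M median of 5.33 RPKM, against 54.3 RPKM in FSC-A High library 3, where Foxm1 was at 3.29 RPKM.

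Unfractionated HSCs give the levels of the same genes without a scatter gate, in CPM per kb of transcript. Library 4 stood apart: Rn45s, the ribosomal RNA precursor, took 15.2% of its reads, against 3.06% to 5.26% in the others, and 11384 genes were detected, against 12909 to 13368. E2f4 led with 54.0, 53.2, 36.8 and 48.1, and E2f6 followed with 28.9, 34.1, 36.8 and 57.7. Library 4 had the highest E2f6, and E2f6 exceeded E2f4 in that library and by a narrow margin in library 3.

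The other members were lower, and library 4 was at an extreme for most of them. E2f1 stood at 14.1, 5.36, 14.5 and 26.9, and E2f5 at 10.2, 13.1, 13.0 and 26.0, both highest in library 4. E2f8 stood at 3.89, 7.46, 7.03 and 1.02, and E2f3 at 3.75, 3.65, 5.48 and 1.64, both lowest there. Mybl2 stood at 3.50, 1.03, 3.50 and 2.83, with library 2 the lowest.

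Foxm1, E2f2 and E2f7 had at most 2 reads in library 4. Foxm1 had 517, 318, 626 and 1 reads, E2f2 had 228, 369, 270 and 2, and E2f7 had 155, 214, 237 and 0. A count of 0 allows up to 0.0183 CPM per kb for E2f7, taking 3 reads as the limit, for counting error only. Without library 4, the means were 3.92 ± 0.912 (SD, n = 3) for Foxm1, 2.44 ± 1.09 for E2f2, 1.45 ± 0.476 for E2f7, 6.13 ± 1.95 for E2f8, 11.3 ± 5.15 for E2f1 and 33.3 ± 4.01 for E2f6. With it they were 2.94 ± 2.09 (SD, n = 4), 1.83 ± 1.50, 1.09 ± 0.822, 4.85 ± 3.01, 15.2 ± 8.88 and 39.4 ± 12.7. The median of the G2/M targets was 27.7, 26.4, 34.7 and 7.28 in the same order of libraries, and that of the G1/S targets 33.5, 39.2, 43.0 and 30.7. Library 4 was lowest for both.

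**Figure D5:**
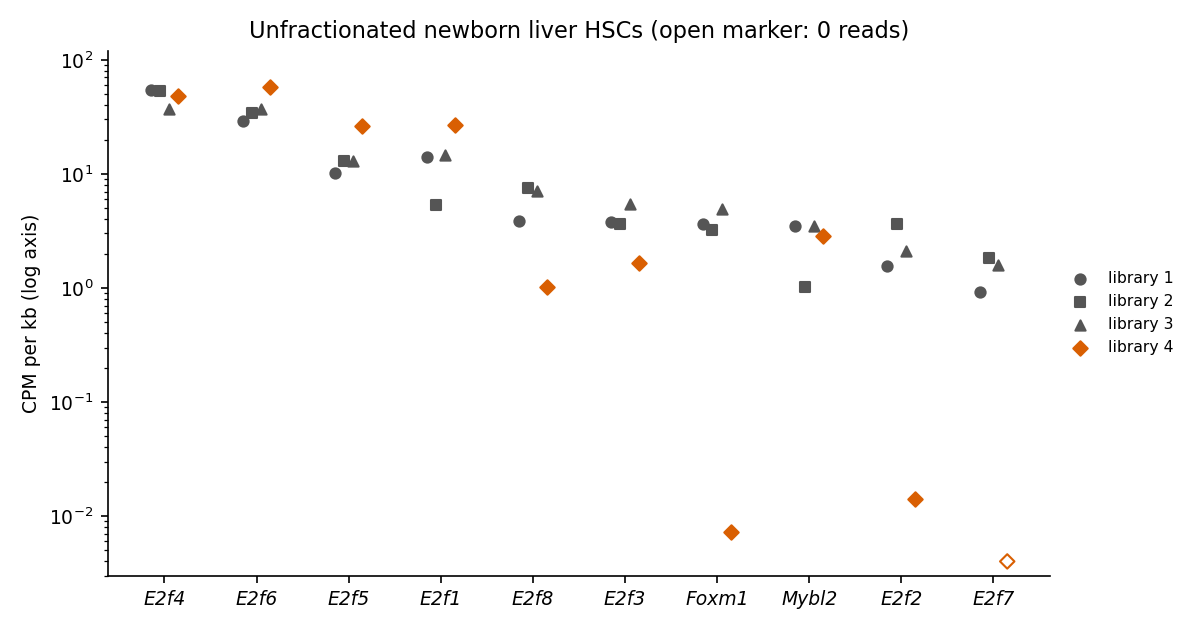
Level of each gene in the 4 unfractionated libraries in CPM per kb (log axis), ordered by mean; library 4 is in orange and its open marker, placed at the bottom, stands for 0 reads. E2f4 and E2f6 lead, and library 4 falls to 1 read of Foxm1, 2 of E2f2 and 0 of E2f7.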

How the data were processed

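Libraries were grouped by their titles. The gated files as deposited hold 1 value for each of 33984 RefSeq transcripts. No label or header names the unit, and it was taken to be RPKM by the authors because value times transcript length summed to 67.2% to 72.3% of the RPKM total over genes with a length; FPKM cannot be told apart. The unfractionated files as deposited hold a signal per gene symbol, of which 100% became whole reads (within 0.01) after division by the smallest value; these form 1 group and were expressed as CPM and per kb of transcript. STAR, DESeq2 and mm10 appear in the submitters' processing notes; versions and roles are not given in the sources used here. Gated depths are estimates from the steps between low values.

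Symbols came from NCBI's GRCm38.p6 table, by accession for 32259 transcripts, by symbol for 1331 and from the file for 394, and lengths from GENCODE M21. The 2 gates were set against each other on log2(RPKM + 1) by limma (3.58.1, R 4.3.3), with an intensity trend and no covariate. Genes reaching 1 RPKM in 3 or more libraries were tested, and an adjusted p (Benjamini-Hochberg) under 0.05 made a call. The design had assumed either counts or RPKM. On simulated data for this comparison (10619 genes, 200 changed) limma recovered 44% of changes of log2 size 1 and 100% of size 2, with 10 false among 154 calls. The simulation used independent normal errors and changed a far smaller share of genes than the 27.3% called in the data. Its rates therefore need not hold for the data. Members and lists were chosen with earlier results of these data known. Named genes were the members, up to 4 called genes of the smallest p per list, members of short lists, and the 3 nearest genes of each called member; Cdc25a was named after its value was seen. A few single genes of the lists are not reported here; they count in the list totals but were not searched for outlying libraries. Alternatives were other pseudocounts, filters and scalings, the sum over transcripts, removal of a spline (5 degrees of freedom) over length and GC content in each library (the length and GC correction), a replicate block, each library left out, and, added after seeing the data, CPM without Rn45s and unfractionated libraries left out in turn. Tables were made with Python 3.11.15, numpy 2.4.6, pandas 2.3.3 and matplotlib 3.10.9.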

Additional observations from a re-analysis of the deposited data

Results flagged for a closer look

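Of 57 groups of 4 libraries checked for a value far from the rest, 2 held one, where chance gives about 1 in 20. E2f8 in FSC-A High library 2, 5.40 RPKM, lay below the others, of which the nearest was 5.73 RPKM, within a narrow range. Ccna2 in FSC-A High library 3, 103 RPKM, lay above a nearest value of 94.5 RPKM.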

How the results depend on the processing

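Over the 17 alternatives run for most members (16 for E2f2, E2f3 and E2f7, which fell below the filter at 5 RPKM), E2f8 was called in 17, E2f6 in 15, Foxm1 in 10, Mybl2 in 2, E2f4 and E2f5 in 1 each and the rest in none. The count of members higher was 1 in place of 2 without a filter, with library totals, with the replicate block and at an adjusted p below 0.01. The count lower was 2 in place of 1 with library totals, and 0 with the replicate block and at an adjusted p below 0.01. Leaving out each library gave 1 to 2 higher and 0 to 2 lower. Library totals gave E2f4 -0.56 (stronger, adjusted p = 0.0228) and Foxm1 1.33 (0.0518); no filter gave Foxm1 1.54 (0.120). The length and GC correction gave Mybl2 1.48 (0.0410), E2f1 0.14, E2f3 0.22 and Ccnd1 0.075, the last 3 with the sign turned; library totals turned Ccnd2 to -0.020. Leaving out a library gave ranges of -1.01 to -0.75 for E2f6, 1.14 to 2.13 for Foxm1, 0.46 to 1.57 for Mybl2, -1.27 to 0.21 for E2f5, -0.54 to 0.38 for E2f1 and -0.18 to 1.10 for E2f2, and 1.50 to 2.00 for E2f8. Over all tested genes, 978 were higher and 2272 lower with library totals and 980 higher after the length and GC correction, against 1657 and 1245; leaving out a library gave 1302 to 1628 and 879 to 1152. Of the listed pathway genes, 8 were lower, against 4 with no filter or after the length and GC correction, 15 with library totals and 2 to 8 with a library left out. The cause of these changes was not tested.

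No label says that replicate numbers pair the gates, and deviations of same-numbered libraries correlated at -0.03, 0.06 and 0.00, so the numbers were not taken as pairs. A fit with the replicate number as a block, which drops FSC-A High library 4, gave E2f6 -0.86 (adjusted p = 0.0536) and Foxm1 1.49 (0.0561), with 1 member higher, 0 lower, and 1451 higher and 987 lower genes in all. Unfractionated means moved by less than 1 SD in each alternative. Leaving out a single library cannot move such a mean by 1 SD, so this limit shows no stability. With each unfractionated library left out in turn, mean CPM ran from 10.6 to 18.2 for Foxm1 and from 5.79 to 11.5 for E2f2. It ran from 4.58 to 7.92 for E2f7 and from 91.7 to 103 for E2f4. Depth limits the lowest values most, with 11 reads for E2f2 and 24 for E2f7 in single FSC-A Low libraries.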
